A study of Drosophila melanogaster with 2 samples.

Results

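The weaker ChIP-seq peaks of CG17806, a zinc-finger protein of the ZAD family, were examined where they fell in protein-coding sequence. Of 30000 peaks called by the authors on both replicates together, 22355 were absent from their stricter list of 7645 peaks, which was filtered by the irreproducible discovery rate (IDR). Of these weaker peaks, 674 had their summit in a coding exon. A peak was counted when its summit lay in annotated coding sequence, more than 500 bp from every start site of any gene and outside 5' and 3' UTRs. The members were thus selected on 2 readouts, absence from the IDR list and the position of the summit, so their low signal and their coding location are descriptions and not findings. The study used chromatin immunoprecipitation with sequencing (ChIP-seq) on intact pupae of Drosophila melanogaster at an age of 24 hours. The transgenic line stably expresses CG17806 with GFP fused to its C-terminus. Sonicated chromatin was immunoprecipitated through the GFP tag, so the fusion protein, not the endogenous one, was the target. There were 2 biological replicates of 1 group. No untagged or treated group was analysed here, and a whole pupa mixes all of its tissues, so binding in a few cells and weak binding in many cannot be told apart.

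ZAD zinc-finger proteins bind DNA through arrays of C2H2 zinc fingers and use the N-terminal ZAD domain to pair with each other. Transcription factor peaks are usually found in promoters and in introns or intergenic enhancers. Coding exons are constrained by the codons they carry and are richer in G and C than introns in Drosophila.

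The sequences at the strongest members are shown because the coding peaks differed plainly from the IDR peaks in composition. Mean A+T within 50 bp of the summit was 46.5% at members and 68.9% at IDR peaks. It was 47.4% over all coding bases that met the definition, and the members were selected in coding sequence, so the contrast is a description. Each run below is 30 bases of the plus strand around the summit, read from the Release 6 assembly (dm6), with every G and C in capitals. These are the 8 members of highest pooled signal that each replicate list also held within 100 bp, leaving out Tsp42Ee and Sema2a. Their chromosome arm, not their composition, is the reason that their sequence is not shown, and A+T within 50 bp of the summit was 59.4% at Tsp42Ee, the highest of the 10, and 49.5% at Sema2a.
Pura, chr3L:7603763-7603792: CGCtGGCCCGGCtGattGaCaGCCatCtGt
Snx27, chrX:5737240-5737269: aCattGaaGCCGaaGCCCGtttCCGttttG
Pvf3, chr2L:7155645-7155674: CattGGaGtCGtCCtCttCGCCaCCGCCat
Elovl7, chr3R:7984002-7984031: CaCtGaaGataaCCtGCGCtGCattGtaGa
G9a, chrX:247163-247192: CaCataCaaaatGCGaaataGaGGaaGaaG
Dlic, chrX:11155196-11155225: aaaGGatGCGGCCGCGGaaaaGGaGaaCCt
CG1632, chrX:8271979-8272008: CCCGGaaCGaatCaGtGGGCGCtCattGGG
rols, chr3L:12028682-12028711: CtGGatGGaCtCaCCtttCaGCGaGCtGtt
The run at Pura and that at CG1632 each held 19 G or C bases of 30, and the run at G9a held the fewest, 11. No search for a shared motif was made across these 8 runs.

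The coding peaks lay at the weak end of the pooled list. Their pooled signal ran from 26.4 to 141, with a median of 33.7, while the median was 48.8 over all weaker peaks, 47.4 over weaker intronic peaks and 56.6 over weaker promoter peaks. The scale of this signal is not stated by the authors, so it ranks peaks within the list and nothing more. The lowest IDR peak stood at 141.38, just above the strongest member, and the deposited list ended at 26.3, and weaker sites than that were not analysed here. Of the members, 561 of 674 (83.2%, Wilson 95% interval 80.2 to 85.9) carried a deposited q-value above 0.05, against 50.02% of all weaker peaks. The share of peaks that fell in coding exons rose steadily down the ranks, from 0.552% at ranks 7646 to 10000 to 6.66% at ranks 25001 to 30000. All 674 intervals had the same width of 376 bp, as did 97.8% of all weaker peaks but 20.03% of IDR peaks.

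The strongest coding peak lay in LRP1, which encodes a receptor of the low-density lipoprotein receptor family, with a pooled signal of 141. It was followed by Tsp42Ee, a tetraspanin (138.9), Pura (138.1), raskol, a Ras GTPase-activating protein (137.1), and Snx27, a sorting nexin (136.5). These 5 shared the highest −log10 q in the list, 4.23, which every IDR peak also carried. Below a gap came Dph4, of diphthamide synthesis (122.7), the growth factor ligand Pvf3 (119.5), the fatty acid elongase Elovl7 (118.8) and the histone methyltransferase G9a (114.0). The rest of the 20 strongest lay in Sec31, Dlic, btsz, CG1632, Sema2a, Socs36E, rols, tweek, Hsf, scrib and HisRS, the last at 78.96. Among them are a coat protein of vesicle transport (Sec31), a dynein light intermediate chain (Dlic), a secreted semaphorin (Sema2a), the heat shock transcription factor (Hsf), a cell polarity protein (scrib) and a tRNA synthetase (HisRS).

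**Figure D1:**
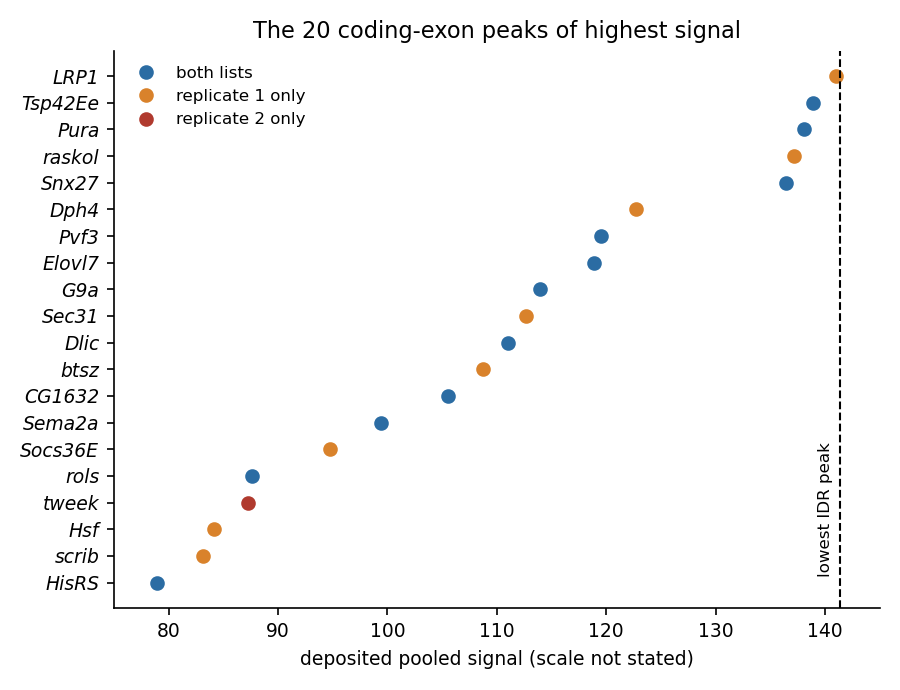
Deposited pooled signal (x axis, scale not stated) of the 20 coding-exon peaks of highest signal, 1 point per peak labelled by gene, coloured by which replicate lists held a summit at most 100 bp away. The dashed line marks the lowest IDR peak at 141.38; LRP1 lies just below it at 141 and HisRS is the lowest at 78.96.

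Only a minority of the coding peaks were found in both replicate lists. A summit of replicate 1 and a summit of replicate 2 both lay within 100 bp of 69 members (10.2%, interval 8.17 to 12.8), while the share over all weaker pooled peaks was 27.3%. A further 260 members (38.6%) had a summit in replicate 1 only, 150 (22.3%) in replicate 2 only, and 195 (28.9%) in neither list, against 16.1% of all weaker peaks. The pooled list was made from the same reads as the replicate lists, so a match to them is not independent evidence of binding.

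This share followed the rank of the peak closely. Of the 13 members at ranks 7646 to 10000, 8 were in both lists (61.5%), and of the 333 members at ranks 25001 to 30000, 2 were (0.601%). Other weaker peaks went from 69.6% to 1.89% over the same ranks. In all 5 rank bins the interval of the members included the value of the other peaks. In the middle bins the shares were 38.2% (interval 23.9 to 55.0) against 50.9% at ranks 10001 to 15000, 33.3% (24.5 to 43.6) against 27.2% at ranks 15001 to 20000, and 7.84% (4.89 to 12.4) against 9.30% at ranks 20001 to 25000. Had other weaker peaks been spread over the ranks as the members were, 11.3% of them would have been in both lists, close to the 10.2% of the members.

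**Figure D2:**
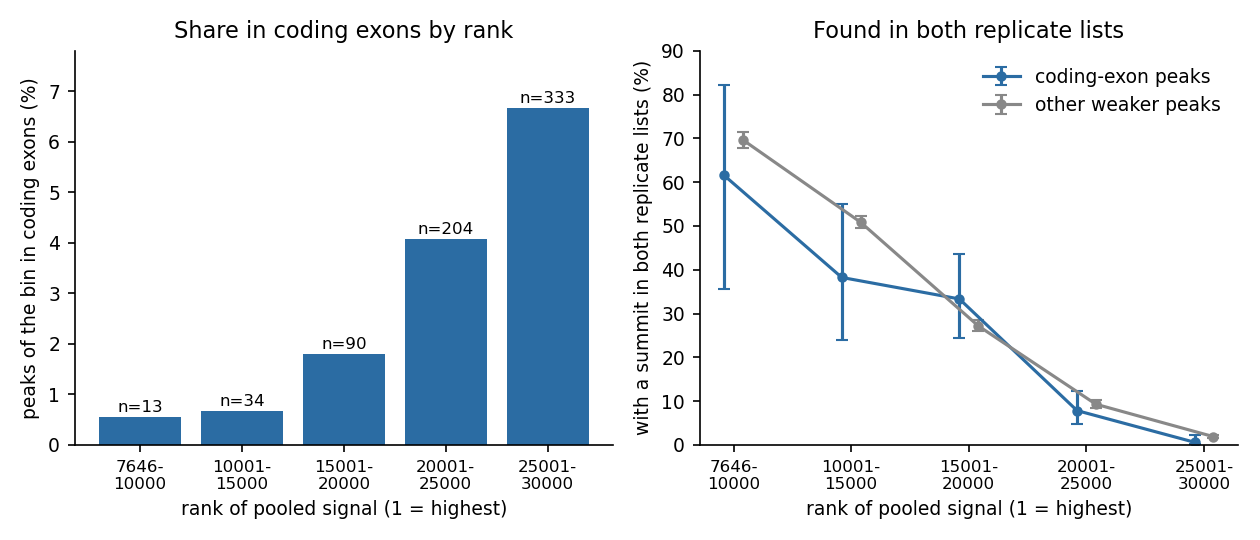
Left, the share of pooled peaks in each rank bin that lay in coding exons (bars, with the number of peaks); right, the share of coding-exon peaks and of other weaker peaks found in both replicate lists (points, Wilson 95% intervals). The share in coding exons rises from 0.552% to 6.66% while the share in both lists falls from 61.5% to 0.601%.

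The replicates did not contribute alike. Replicate 1 had a summit at 329 members (48.8%) and replicate 2 at 219 (32.5%), where the shares over all weaker peaks were 70.3% and 40.9%. The offset from the pooled summit was smaller in replicate 1 (median 6 bp) than in replicate 2 (median 24 bp). Most of these partner summits also lay in a coding exon by the same definition, 300 in replicate 1 (91.2%) and 199 in replicate 2 (90.9%). A partner lies within 100 bp of a summit selected in coding sequence, so these high shares are largely set by the matching. In each replicate 2 of the partners ranked within the top 7645 of its own list. Over the 69 members found in both, the ranks in the replicates had a Spearman rho of 0.54, a description over peaks of the same libraries.

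Single members show the range. At Snx27 the summit ranked 8496 in replicate 1 and 8861 in replicate 2, 2 bp and 0 bp from the pooled summit. At Pvf3 it ranked 10625 in replicate 1 and 6789 in replicate 2. The ranks were thus close at Snx27, while Pvf3 stood higher in replicate 2. At Sec31 the summit ranked 7140 in replicate 1, the highest rank of any partner there, yet the nearest summit of replicate 2 was 2602 bp away. At Hsf the nearest summit of replicate 2 was 6395 bp away, and at tweek only replicate 2, at rank 9187, had a summit within 100 bp. Of the 20 strongest members, 11 were in both lists, 8 in that of replicate 1 only and 1 in that of replicate 2 only.

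The deposited lists of the single replicates, treated by the same definition below their own top 7645 peaks, held different numbers of coding peaks. Replicate 1 held 602 (2.69% of its weaker peaks) and replicate 2 held 1256 (5.62%). A summit of the other replicate lay within 100 bp of 11.1% of the former and 5.33% of the latter, where the shares over all weaker peaks of these lists were 27.9% and 28.8%.

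The DNA at the coding summits was poor in A and T. Mean A+T within 50 bp of the summit was 46.5% ± 7.45 (SD over 674 peaks), against 60.9% ± 9.39 at weaker intronic summits, 61.6% ± 10.3 at weaker intergenic summits and 68.9% ± 8.14 at IDR summits. It was close to the 47.4% ± 7.67 found over every one of the 17.53 Mb of coding bases that met the definition (eligible coding bases). The members varied from 29.7% to 70.3%, and 28 of them (4.15%, interval 2.89 to 5.94) exceeded 60%, compared with 6.42% of eligible bases, 54.6% of weaker intronic peaks and 87.1% of IDR peaks.

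The profile around the summit also ran opposite to that of the IDR peaks. Flanks centred 250 bp to each side held 52.4% A+T, against 51.0% around eligible bases, so the centre of a member was lower than its surroundings, whereas IDR peaks rose from 54.6% in the flanks to 68.9%. The centre was richer in A+T than the flanks at 183 members (27.2%, interval 23.9 to 30.6), at 57.5% of weaker intronic peaks and at 88.5% of IDR peaks. Over eligible coding bases the centre was richer at 33.8%. In the members 91.7% of the bases in the central windows were coding, and 60.2% of those in the flanks. In the 115 members whose whole 601 bp were coding, the centre held 44.9% and the flanks 46.0%, where the eligible bases with the same property held 47.1% and 47.0%. The 69 members in both replicate lists had 46.9% ± 6.89, and the 195 in neither had 45.1% ± 7.41 (SD over peaks); this difference was not tested. From the highest rank bin to the lowest, the mean went from 47.4% to 46.2% in the members but from 64.4% to 58.1% in other weaker peaks.

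**Figure D3:**
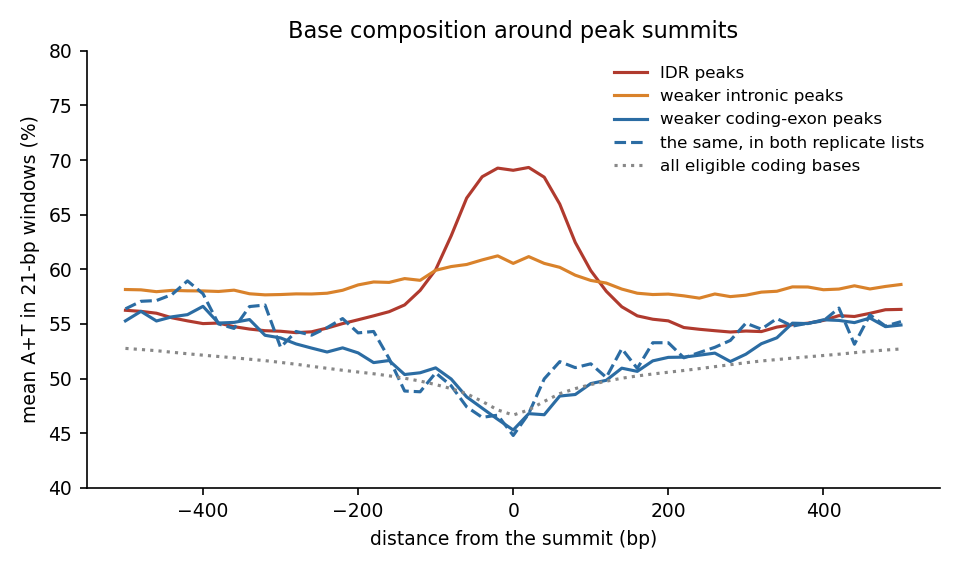
Mean A+T in 21-bp windows (y axis) by distance from the summit (x axis, bp) for IDR peaks, weaker intronic peaks, weaker coding-exon peaks, those of them in both replicate lists, and all eligible coding bases. IDR peaks form a central hump (68.9% within 50 bp), while the coding-exon peaks form a trough near the level of the eligible bases at the centre (46.5% and 47.4%) and deeper than theirs, with 56.6% at 400 bp upstream on the plus strand against 52.1%.

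Several of 9 fixed short words gave the same picture, but not all. Words were counted on both strands in the window within 50 bp of each summit. TATAAA was present in 23 members (3.41%), 2.67% of windows centred on eligible bases, 14.6% of other weaker peaks and 25.3% of IDR peaks. A run of 7 A bases (AAAAAAA) was present in 7 members (1.04%), in 1.14% of eligible windows and in 16.7% of IDR peaks. CAGCAGCAG, which in frame can encode glutamine repeats, was present in 28 members (4.15%) and in the flanks of equally many, against 2.68% of eligible windows, 0.932% of other weaker peaks and 0.131% of IDR peaks. The palindrome TATCGATA was present in 0 members, which allows a share of up to 0.567% (Wilson upper limit), and in 0.083% of eligible windows. Other weaker peaks held it at 0.839% and IDR peaks at 0.549%. CACGTG was about as frequent in members (1.04%) as in other weaker peaks (1.06%), with 1.53% of eligible windows and 0.523% of IDR peaks.

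The 3 words of 7 bases described next were those that exceeded the flanks by the largest number of members. They were picked for that excess, so it is given as a description. The flanks were also less coding than the centres, with 60.2% of bases against 91.7%. The first, CACCACC, was in 47 members (6.97%) and in the flanks of 24, and 4.48% of eligible windows held it. Another, CCACCAC, overlaps the first where the triplet repeats and was in 38 members and the flanks of 15. Its share of members was 5.64% (interval 4.1 to 7.6), and 4.43% of eligible windows held it. The remaining word, CGAGGAG, was in 41 members and the flanks of 19. Its share was 6.08% (interval 4.5 to 8.1), against 4.62% of eligible windows. For both words the eligible share lay inside the interval of the members. Examples near summits, with the word or its reverse complement in capitals, show the context of these words.
x16, chr2L:6919646-6919675: acCACCACCgcctcCACCACCtccgccacc
elB, chr2L:14392922-14392951: gagccctttgGGTGGTGctgcagttgcttt
dally, chr3L:8828362-8828391: gCCACCACgcaccacagacgtcgcctacag
eIF4A, chr2L:5983102-5983131: tcgatgacatgaacttgcgCGAGGAGttgc
Gdi, chr2L:9492087-9492116: ctgCTCCTCGtcacccaactcgtgcttgat
The x16 run holds the word more than once in a row of triplets, while the other 4 hold it once. A word match is a description of letters and not a binding site.

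The 6 IDR peaks in coding exons, which lie just on the other side of the selection, varied in composition. They lay in Ubr1 (signal 142.2), CG4080 (143.4), su(w[a]) (172.5), sgg, the fly GSK-3 kinase (182.8), Pde1c, a phosphodiesterase (185.6), and bip1 (278.0), and each had a summit in both replicate lists. A+T was 63.4% at bip1, 62.4% at sgg and 64.4% at su(w[a]), each within 1 SD of the mean over IDR peaks. It was 51.5% at CG4080, within 1 SD of the mean over weaker coding peaks. At Ubr1 (31.7%) and Pde1c (30.7%) it was more than 1 SD below that mean. Both values still lay within the range of each group, whose lowest were 29.7% (weaker coding peaks) and 25.7% (IDR peaks). A pair of runs in the same format shows the contrast, with G and C in capitals.
bip1, chr3L:8058023-8058052: aaGaGtGGttatCGtattCGtCatCtatCa
Pde1c, chr2L:11816556-11816585: CCttaGGCCGCaGCGCCatCtGCCGGCtCC
The first has 11 G or C bases and the second 22. At the 500-bp limit, the members nearest a start site were those in Srlp, Nin and mtd, each 502 bp away with signals of 29.1, 42.3 and 38.9. The nearest weaker peaks left out lay in Spase22-23 (498 bp, 33.7), the gene or (497 bp, 31.7) and CG11134 (497 bp, 31.6), which differ little from them in signal.

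Coding peaks were densest near start sites. The nearest start site was a median of 1138 bp away, against 1870 bp over eligible coding bases, and 292 members (43.3%, interval 39.6 to 47.1) lay within 1000 bp, where 23.9% of eligible bases lie. The density was 84.0 members per Mb of eligible bases at 501 to 750 bp, 52.9 at 751 to 1000 bp, 35.7 at 1001 to 2000 bp and 21.2 beyond 5000 bp. Along the coding sequence, 182 members (27.0%, interval 23.8 to 30.5) fell in the first 20%, where 12.9% of eligible bases lie. The middle was thinner, with 103 members (15.3%) between 40% and 60%, where 22.6% of eligible bases lie. At the far end, in the last 20%, the members held 20.9% and the eligible bases 21.5%.

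**Figure D4:**
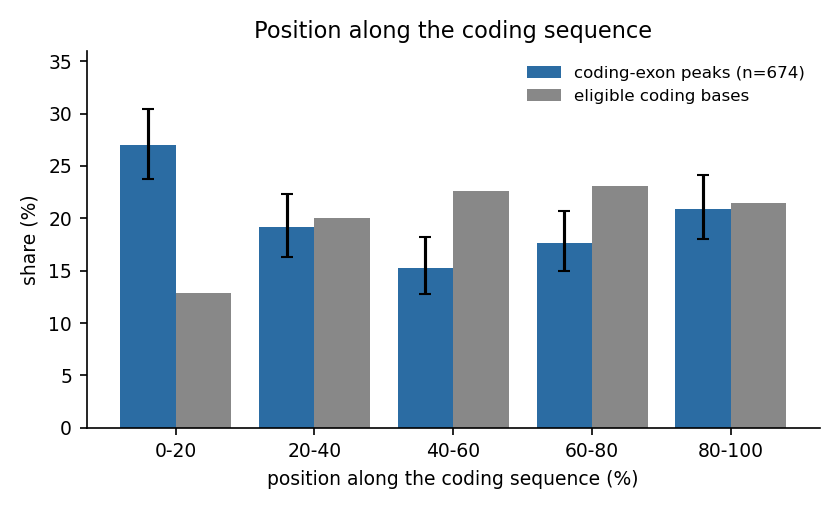
Share (y axis, %) of the 674 coding-exon peaks and of eligible coding bases in steps of 20% along the coding sequence (x axis, % from the start codon); error bars are Wilson 95% intervals. The first step holds 27.0% of the peaks and 12.9% of the bases.

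The coding exons with a member were shorter than those of the average eligible base. The median coding part of the exon was 531 bp, against 837 bp over eligible bases, and the median distance from the summit to the nearer edge of it was 97.5 bp against 174 bp. The whole window within 50 bp of the summit was coding at 467 members (69.3%). A median of 81.1% of the 376-bp interval was coding, so most intervals reached beyond the coding sequence. The summit was coding in every transcript that spans it at 624 members (92.6%), and 38 members (5.64%) lay inside a further annotated gene as well. Only 3 members, in cv-c, nkd and Sry-delta, had any 31-base word in the window that recurs on the chromosome arms analysed (0.445%, against 1.03% of other weaker peaks). Sequence outside these arms was not scanned.

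Beyond 500 bp from an IDR summit, the peaks were also densest near it. The median distance to the nearest IDR summit was 2657 bp, compared with 8051 bp over eligible coding bases. Per Mb of eligible bases there were 178.9 members at 501 to 1000 bp from an IDR summit, 102.2 at 1001 to 2000 bp, 49.3 at 2001 to 5000 bp and 11.01 beyond 10000 bp. The same gradient was seen in introns, where weaker peaks numbered 626.2 per Mb at 501 to 1000 bp and 47.4 per Mb beyond 10000 bp, so it was not particular to coding exons. At 200 to 500 bp both densities were lower than at 501 to 1000 bp, at 79.0 per Mb in coding exons (6 members) and 217.4 per Mb in introns. At every distance shown the coding density was below the intronic one, and over all distances it was 38.5 against 192.3 per Mb. The gradient from start sites held in members without an IDR summit within 2000 bp, at 58.8 per Mb at 501 to 750 bp and 13.6 beyond 5000 bp.

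**Figure D5:**
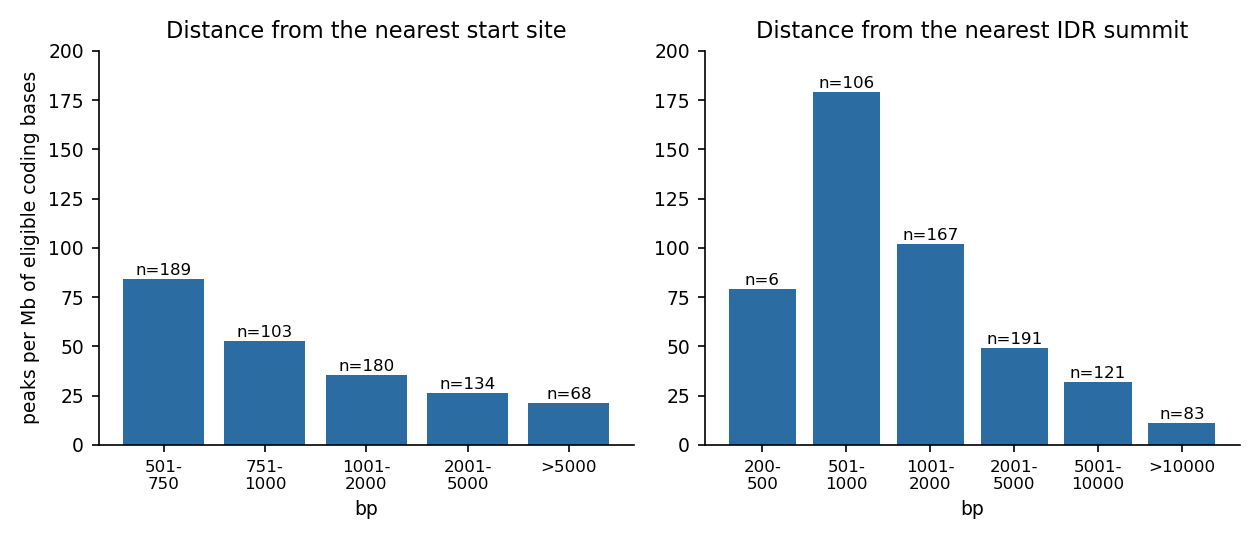
Coding-exon peaks per Mb of eligible coding bases (y axis) by distance in bp from the nearest start site (left) and from the nearest IDR summit (right), with the number of peaks on each bar. Density falls from 84.0 to 21.2 per Mb with distance from a start site and from 178.9 to 11.01 per Mb beyond 500 bp from an IDR summit.

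Within 500 bp of an IDR summit there were 6 members, and all lay 201 to 216 bp from it, near the smallest spacing of 199 bp seen between members. They lay in Pura, CG1632, Socs36E, bif, sgg and kon. The member in sgg, the kinase with an IDR peak in a coding exon, was 205 bp from that peak and had 39.6% A+T where the IDR peak had 62.4%. Of the 112 members within 1000 bp of an IDR summit, 20 were in both replicate lists (17.9%, interval 11.9 to 26.0). Of the 479 at 1001 to 10000 bp, 38 were (7.93%, interval 5.83 to 10.7), and of the 83 beyond, 11 were (13.3%, interval 7.56 to 22.2). The median ranks of these groups were 23066, 25618 and 24147, in the same order as the shares, and the part of rank in the difference was not tested. Sonicated fragments were 200 to 800 bp long per the labels, and whether neighbouring peaks share fragments was not tested.

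The members lay in 592 of the 11998 protein-coding genes with eligible bases (4.93%). Of these genes 521 held 1 member, 63 held 2 and 8 held 3 or more. Genes whose start site had an IDR summit at most 500 bp away held 59.98 members per Mb (268 members, 233 of 2471 genes, 9.43%). Genes with an IDR summit elsewhere in the gene had a like 59.3 per Mb (117 members, 93 of 786 genes, 11.8%), and genes with none had 26.1 per Mb (289 members, 266 of 8741 genes, 3.04%). Thus 289 of 674 members lay in genes with no IDR peak at a start site or inside them. The chromosome arms were alike, with 40.2 members per Mb on 2L, 38.4 on 2R, 41.0 on 3L, 38.7 on 3R and 35.6 on X. Chromosome 4, with 0.243 Mb of eligible bases, had 3 members, or 12.4 per Mb.

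The gene with the most members was osp (outspread), with 5 in 5 coding exons across 87316 bp and signals of 30.04 to 37.4, none of them in both replicate lists. The chitinase gene Cht6 held 4 within 5141 bp of each other, of which 1 was in both lists. The genes with 3 were mld, a zinc-finger gene of ecdysone production, ds, a giant protocadherin, Snoo, a regulator of Smad signalling, Src42A, a Src-type kinase, CG10283 and CG5726. None of the members in these 6 genes was in both replicate lists, and their highest signal was 46.4, in mld. Some neighbouring pooled summits had the same nearest summit in a replicate list. At RpL8 a pair of pooled summits 207 bp apart had a single nearest summit in replicate 1, 0 and 207 bp away. At E23 a pair 200 bp apart likewise had 1 nearest summit in replicate 1, 113 and 87 bp away. Whether the summits of such a pair share a source was not tested. In all 32 pairs of neighbouring members lay within 1000 bp of each other.

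Gene groups were read against the 4.93% of all eligible genes and, since long genes offer more sequence, the 38.4 members per Mb over all of them. Of 52 eligible genes for cytoplasmic ribosomal proteins, 6 held a member (11.5%, interval 5.40 to 22.97). They were RpS13, RpL8, RpL19, RpS3, RpL7 and RpL27, with 7 members in 14.7 kb of eligible sequence, or 476.2 per Mb. The strongest was at RpS13, with a signal of 54.1, 95 bp from a summit of replicate 1 and 14 bp from one of replicate 2. The next was at RpL8, with 48.9, 0 bp and 95 bp from them, and these were the group's 2 members in both lists. Of the 7, 6 lay within 1000 bp of a start site, and the member in RpS3 lay 1028 bp from one. Over all genes the density was 84.0 per Mb at 501 to 750 bp from a start site and 52.9 at 751 to 1000 bp. The part of this distance in the density of the group was not tested.

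Of 13 eligible genes of the ecdysone response, the hormone that times the pupal stage, 3 held a member (23.1%, interval 8.18 to 50.3). These were E23, an ABC transporter induced by ecdysone (58.2 and 30.97), the Ets factor gene Eip74EF (34.6) and EcR, the receptor itself (32.0), and none was in both lists. The group had 88.9 members per Mb. Of 23 eligible genes for regulators with glutamine repeats, 4 held a member (17.4%, interval 6.98 to 37.1): osa, a subunit of the Brahma remodeller, nej, the CBP acetyltransferase, Eip74EF and skd, a Mediator subunit. Per Mb this group had 44.7 members, close to the 38.4 over all genes. Both members in osa, with signals of 44.3 and 34.2, were in both replicate lists. The pair in nej, at 37.9 and 27.7, was not. Of 12 listed genes for actins, tubulins, eEF1alpha, eEF2 and eIF4A, 2 held a member, eIF4A (59.6) and betaTub56D (28.1), or 128.4 per Mb. Outside this list, the translation factor genes eIF4E6 (53.0) and eEF1beta (43.4) also held a member each, in the list of replicate 1 only. Of 7 larval serum and fat body genes, 1 did, Lsp1gamma (34.6), or 30.6 per Mb.

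Groups of large structural proteins each had 1 gene with a member, so their shares of genes were at or above 4.93%, while their members per Mb were below the 38.4 over all genes. Of 18 sarcomere genes it was Zasp52 (29.0), a share of 5.56% and 8.78 members per Mb. Of 13 genes for giant cytoskeletal proteins it was shot (28.7), a share of 7.69% and 4.37 per Mb. Of 14 matrix genes it was nyo (65.8), a share of 7.14%, in 71.4 kb of eligible sequence. Of 15 cadherin genes it was ds, with 3 members of 28.4 to 42.6, a share of 6.67% and 28.0 per Mb. With 1 to 3 members a group, these values are descriptions. None of the 14 heat shock, 14 ion channel and 13 mucin genes on these lists held a member. With so few genes, 0 allows shares (Wilson upper limits) of up to 21.5%, 21.5% and 22.8%. These lists did not cover every gene of their kind. The heat shock list held only Hsp70, Hsc70, Hsp68, Hsp83 and Hsp60A genes. Outside it, Hsp67Ba held a member (68.0, in the list of replicate 1 only). Outside the ion channel list, the channel genes ppk23 (34.8) and CngB (33.6) each held a member, found in neither replicate list. Of 93 cuticle genes 2 held a member (2.15%, interval 0.592 to 7.51), Cpr72Ea (46.0, in both lists) and Cpr100A (26.8), or 47.6 per Mb. Of 171 genes for chemosensory receptors 2 did (1.17%, interval 0.321 to 4.16), Ir76a (39.0) and Or67c (29.3), with 62.4% and 64.4% A+T, or 12.7 per Mb.

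At the tagged gene itself, CG17806 (chr3R:17801542-17803260, minus strand, 747 eligible bases), there was no member, nor in the other 2 genes of its list. Within 20 kb there were 2 members. One, in CG7379, had a signal of 67.0 at rank 14626 and was in both replicate lists. The other, in Odj, a neighbouring ZAD zinc-finger gene, had a signal of 37.5 at rank 23018 and was in the list of replicate 1 only.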

How the data were processed

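The labels describe ChIP-seq of 2 biological replicates of GFP-tagged CG17806 pupae aged 24 hours. Per the file descriptions deposited with the series, the authors called peaks against a control alignment in each replicate and in both together (30000 peaks each, on dm6), and derived an IDR list of 7645. Aligner, peak caller and read depth: not given in the sources used here. The signal per peak is deposited on a scale that is not stated and was used only to rank peaks. The deposited −log10 q-value has a ceiling of 4.23. The remaining deposited value used was the offset of the summit in bp, which places it within its interval. The control, the signal tracks and any raw reads were not used here.

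Summits were placed on Ensembl release 115 genes and Release 6 sequence (RefSeq), with promoters (500 bp from a start site; transposable elements not counted) taking precedence over UTRs and UTRs over coding sequence. Eligible bases are all coding bases that pass this definition. A replicate matched when its nearest summit lay within 100 bp. A+T and words were read within 50 bp, flanks 250 bp away. Named genes were those of the 20 members of highest signal, genes with 3 or more members, up to 2 members of highest signal per gene list, members within 20 kb of CG17806 and those at the thresholds; others were named after their values were seen. The members and the 15 gene lists were chosen with earlier results of these data known. Names that matched no symbol were left out. No test was run and no p-value computed: shares carry Wilson 95% intervals, which cover counting error only, and peaks are not replicates of a condition. Python 3.11.15, numpy 2.4.6, pandas 2.3.3, scipy 1.17.1 and matplotlib 3.10.9 were used, and placement and distances were checked on planted summits.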

Additional observations from a re-analysis of the deposited data

How the results depend on the processing

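The number of members was 382 at over 1000 bp from every start site, 114 at a −log10 q of at least 1.3 and 58 at a −log10 q of at least 2; it stayed within 1.5 times 674 under the other settings tried, apart from single replicates. With the list of 1 replicate in place of the pooled list it was 602 to 1256, the latter without replicate 1. The share of members in both replicate lists was 6.68% with summits within 50 bp, 15.3% within 200 bp, 20.5% with overlapping intervals, 40.4% at a −log10 q of at least 1.3 and 43.1% at 2 or more. Over all weaker peaks it was 17.4%, 38.4%, 47.7%, 47.6% and 54.7% under these settings, above the members' share under each. Mean A+T was 47.7% within 100 bp of the summit, 44.5% where the window was all coding and 45.9% to 47.6% in single replicates. Genes with a member numbered 331 at over 1000 bp, 57 at a −log10 q of at least 2 and 540 to 1125 in single replicates. Members per Mb at a −log10 q of at least 2 were 2.78 on 2L, 3.84 on 2R, 2.65 on 3L, 3.602 on 3R, 4.12 on 4 and 3.53 on X. In single replicates they were 38.1 to 69.6 on 2L, 36.1 to 67.1 on 2R, 36.3 to 81.7 on 3L, 34.8 to 81.2 on 3R, 20.6 on 4 in each, and 27.0 to 59.0 on X. Counting transposable elements as genes gave 668 members and counting stop codons as coding gave 675, both chosen after seeing the data. No paired analysis was possible because there is 1 group. The cause of these changes was not tested. Without read depths, no limit of detection can be given, and with 2 replicates their spread is poorly known.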
